A study of Homo sapiens with 2 samples.

Results

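The miR-532 to miR-502 cluster is a group of 8 miR hairpins on chromosome X, MIR532, MIR188, MIR500A, MIR362, MIR501, MIR500B, MIR660 and MIR502, that lie in introns of CLCN5. Its members were taken from the deposited table by name: a row was kept when its miR number, without arm, asterisk or copy suffix, was that of a hairpin of the cluster. This gave 13 of the 934 names in the table, from 7 hairpins, and miR-500b was not analysed here. The study compared K562, a leukemia cell line, with K562/ADM, a stable variant raised from K562 in rising concentrations of adriamycin (ADM, an anthracycline that damages DNA) and then kept in 1000 ng/mL of the drug. The labels do not say whether K562/ADM is a single clone. Small RNA was sequenced from 1 library of each line, so that there is no replicate check, and every difference given here is between these libraries and not between the conditions.

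The miRs typical of blood cells were abundant in both libraries, and those of other tissues were rare. Hematopoietic cells are known for miR-142-3p, which had 351692 reads in K562 against 507475 in K562/ADM, and red cell precursors for miR-451, with 30470 against 19738. The liver miR-122 had 4 reads in each, the neuronal miR-124 had 1 and 2, and the epithelial miR-200c had 58 and 63. Over the 934 names, 7677738 reads were recovered for K562 and 6895193 for K562/ADM, which is not the whole of each library.

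A miR is cut from a hairpin in a longer transcript, first by Drosha in the nucleus and then by Dicer in the cytoplasm. Each hairpin can give a mature miR from its 5' side (the 5p arm) and from its 3' side (the 3p arm), of which usually one is kept in an Argonaute protein and the other is degraded. Bases 2 to 8 of the mature miR, the seed, pair with target mRNAs. CLCN5 encodes ClC-5, an exchanger of chloride and protons in endosomes that is best known from the proximal tubule of the kidney, where its loss causes Dent disease. Hairpins in 1 intron can be cut from the same host transcript, and the levels of their mature miRs can still differ through processing and decay.

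On GRCh37 the cluster spans 11.5 kb of the plus strand, from the start of MIR532 at chrX:49767754-49767844 to the end of MIR502 at chrX:49779206-49779291. All 8 hairpins lie in intron 3 of the transcript CLCN5-203, which runs from 49689925 to 49806924, and none overlaps an annotated CLCN5 exon. Each is intronic in 3 of the 9 annotated CLCN5 transcripts. MIR188 (49768109 to 49768194) starts 264 nt after MIR532 ends, and a gap of 4844 nt follows before MIR500A (49773039 to 49773122). MIR362 (49773572 to 49773636), MIR501 (49774330 to 49774413) and MIR500B (49775279 to 49775357) then follow at gaps of 449, 693 and 865 nt. MIR660 (49777849 to 49777945) and MIR502 come last, after gaps of 2491 and 1260 nt.

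RefSeq on GRCh38.p14 gave a mature sequence for 12 of the 13 names, and each of these was found once in its GRCh37 hairpin. The 5p arms whose values are compared below are shown first, because most of them start with nearly the same bases. Capitals mark the seed. The table gives no arm for miR-500a, miR-500a* and miR-660. From general miR naming, and not from the files, miR-500a and miR-660 were taken as 5p arms and miR-500a* as the 3p arm, and the sums over arms rest on this.
miR-532-5p: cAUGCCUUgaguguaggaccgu
miR-188-5p: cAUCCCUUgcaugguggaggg
miR-500a-5p: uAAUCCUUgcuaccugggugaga
miR-362-5p: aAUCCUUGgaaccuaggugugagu
miR-501-5p: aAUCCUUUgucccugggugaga
miR-502-5p: aUCCUUGCuaucugggugcua

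The 3p arms are shown because the largest differences between the libraries were found in 2 of them, miR-501-3p and miR-502-3p, which share a seed.
miR-532-3p: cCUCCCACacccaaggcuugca
miR-188-3p: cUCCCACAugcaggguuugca
miR-500a-3p: aUGCACCUgggcaaggauucug
miR-362-3p: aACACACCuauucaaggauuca
miR-501-3p: aAUGCACCcgggcaaggauucu
miR-502-3p: aAUGCACCugggcaaggauuca

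The sequences fall into subfamilies. The 5p arms of MIR500A, MIR362, MIR501, MIR500B and MIR502 all hold AUCCUU, which was found in 17 of the 2370 RefSeq mature miRs (0.717%). The 3p arms of the same 5 hairpins hold CAAGGAUUC, found in no other mature miR of that table, or in 0.211% of all. The 3p arms of MIR500A, MIR501 and MIR502 share the longer run GGGCAAGGAUUC. MiR-532-3p and miR-188-3p share CUCCCACA, which 4 of the 2370 mature miRs hold (0.169%). Each run was looked for on the mature strand alone.

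Some members are close enough for reads to be ambiguous. MiR-501-3p and miR-502-3p differ at 2 of 22 bases, C9U and U22A, with the base of miR-501-3p first and positions counted from its 5' end. MiR-500a-3p and miR-502-3p share a run of 20 bases and, aligned with 1 base offset, differ by U21A, counted from the 5' end of miR-500a-3p. The whole 18 bases of miR-500b-5p are contained in miR-500a-5p. The sources used here do not give how mapping divided reads between such names. The values of miR-501-3p, miR-502-3p, miR-500a* and miR-500a are therefore uncertain to that extent.

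As a whole the cluster was small in both libraries and had a higher read share in K562/ADM. It held 4281 reads in K562, or 0.0558% of the reads of all 934 names (95% interval 0.0541 to 0.0575, Clopper-Pearson). In K562/ADM it held 7458 reads, or 0.108% (0.106 to 0.111). Scaled reads are the reads of a library over its size factor, which was set by the median of ratios. After this scaling the summed ratio of K562/ADM to K562 was 2.13 (95% interval 2.05 to 2.22). All intervals cover counting error only, as there is 1 library per line. Reads without molecular identifiers are not independent molecules, so even this error may be understated. Under other scalings this ratio of all members lay between 1.94 and 3.57. Without miR-502-3p, the member with the most reads over both libraries, the ratio was 1.54 (1.47 to 1.62) with the median of ratios. In a bulk library, more cells that make a miR and a higher level per cell cannot be told apart.

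A call of higher or lower needed a difference of 2-fold or more together with an interval that excluded 1. Of the 13 members, 3 were called higher (miR-502-3p, miR-501-3p and miR-188-5p), 0 were called lower and 10 were not called. Among all 934 names, 11.1% were called higher and 15.6% lower. The 10 members whose reads over both libraries came to 50 or more included all 3 calls, while of the 429 names with as many reads 14.5% were called higher and 24.2% lower. Upper-quartile scaling added 0.74 to each log2 ratio and gave 9 members higher and 0 lower, beside 223 higher and 95 lower names in the whole table in place of 104 and 146. The 10 members with 10 reads or more had a median log2 ratio of 0.65, beside -0.08 over the 604 names of the table with as many reads. Of these 10 ratios 9 were above 1, or 8 under total-read and miR-425 scaling, and under upper-quartile scaling all 10 were.

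**Figure D1:**
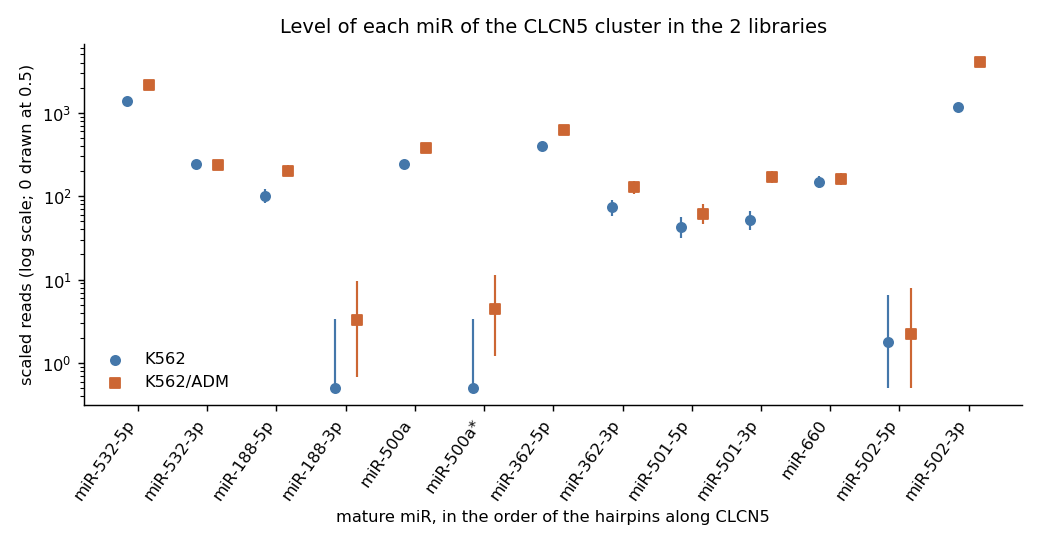
Scaled reads (y axis, log scale, 0 drawn at 0.5) of each of the 13 names in K562 (circles) and K562/ADM (squares), in the order of the hairpins along CLCN5. Bars are 95% counting intervals, clipped at 0.5; miR-532-5p was the highest name in K562 and miR-502-3p in K562/ADM, while miR-188-3p, miR-500a* and miR-502-5p had at most 4 reads in either library.

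MiR-502-3p, from the last hairpin, had the largest ratio in the cluster as the reads were assigned. Whether reads of the near-identical miR-500a-3p add to it was not tested. K562 gave 1307 reads of miR-502-3p and K562/ADM 3714, or 1181 and 4110 scaled reads. Its ratio was 3.48 (3.27 to 3.71), with the whole interval above 2-fold. In rank among all names it stood at 121 in K562 and at 66 in K562/ADM. The other arm, miR-502-5p, had 2 reads in each library and a ratio of 1.22 (0.0888 to 16.9), so that at this depth nothing can be said of it.

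MiR-501-3p, which shares the seed of miR-502-3p, had 57 reads against 154 in K562/ADM, or 51.5 and 170.4 scaled reads. Its ratio of 3.31 (2.43 to 4.57) overlapped that of miR-502-3p. For each read of miR-501-3p there were 22.9 of miR-502-3p in K562 against 24.1 in the variant, and the odds of miR-501-3p to miR-502-3p in K562/ADM over those in K562 were 0.951 (0.692 to 1.32). The ratio between these near-identical names therefore did not move detectably, and whether reads of miR-502-3p add to those of miR-501-3p was not tested. Together the reads with this seed went from 1364 to 3868, a ratio of 3.47 (3.26 to 3.70).

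MiR-188-5p stood at the 2-fold limit. Its 112 reads in K562 stood against 183 in K562/ADM, or 101.2 and 202.5 scaled reads, with a ratio of 2.001 (1.57 to 2.55). It was called with 3 of the other 6 scalings and fell short with the remaining 3, where its lowest ratio was 1.82. The next member below it was miR-362-3p at 1.74 (1.30 to 2.34), and the next above it was miR-501-3p. Its partner miR-188-3p had 0 reads in K562, which allows up to 3 reads, and 3 in K562/ADM, too few for a fold.

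The 5p arms of MIR532, MIR362 and MIR500A lay close together. MiR-532-5p, the most abundant member in K562, had 1537 reads there and 1962 in K562/ADM, or 1389 and 2171 scaled reads, with a ratio of 1.56 (1.46 to 1.67). MiR-362-5p had 439 and 565 reads and a ratio of 1.58 (1.39 to 1.79). MiR-500a had 267 and 342 reads and a ratio of 1.57 (1.33 to 1.85). For these 3 the whole interval was above 1 and below 2-fold. MiR-501-5p, at 47 and 56 reads, had a similar ratio of 1.46, but its interval (0.972 to 2.20) held 1.

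MiR-660 and miR-532-3p stood nearest to equality. MiR-660 had 164 reads in K562 against 144 in K562/ADM, or 148.2 and 159.4 scaled reads, and a ratio of 1.08 (0.854 to 1.35). MiR-532-3p had 268 and 214 reads, or 242.2 and 236.8 scaled reads, and a ratio of 0.978 (0.813 to 1.17). Both ratios changed sides of 1 with the scaling, running from 0.978 to 1.80 for miR-660 and from 0.889 to 1.64 for miR-532-3p. MIR660 lies between MIR501 and MIR502, so that its ratio near 1 stood between the 2 hairpins with the highest ratios. MiR-500a* had 4 reads in K562/ADM and 0 in K562, at least 1.63-fold higher against a floor of 3 reads in K562, which leaves out the counting error in K562/ADM (the exact interval began at 0.808).

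**Figure D2:**
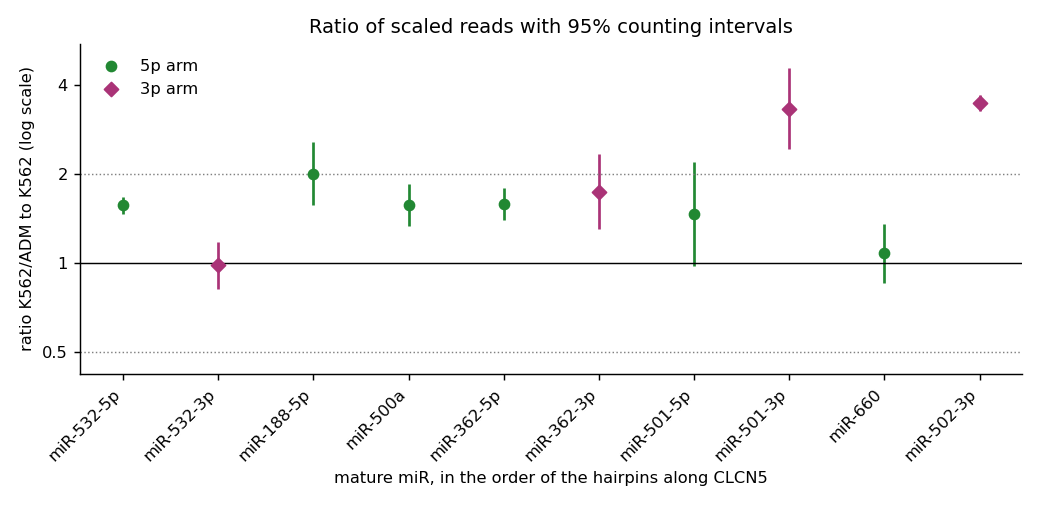
Ratio of scaled reads of K562/ADM to K562 (y axis, log scale) for the 10 names with at least 10 reads, in the order of the hairpins, with 95% counting intervals, 5p arms as circles and 3p arms as diamonds. A solid line marks equality and dotted lines mark 2-fold differences; miR-501-3p and miR-502-3p have their whole intervals above 2-fold, and miR-532-3p and miR-660 lie at the solid line.

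Ordered by ratio, no pair of neighbours among these 10 names had separate intervals, although the ends of the order did. Ordered by level, most of the abundant members differed from their neighbours. In K562 the order began with miR-532-5p, miR-502-3p and miR-362-5p, each with an interval apart from the next. MiR-532-3p and miR-500a, at 242.2 and 241.3 scaled reads, overlapped. In K562/ADM miR-502-3p came before miR-532-5p, and miR-500a, at 378.5 scaled reads, came before miR-532-3p with separate intervals. From miR-532-3p through miR-188-5p, miR-501-3p and miR-660 to miR-362-3p (236.8 to 127.3 scaled reads), each name there overlapped the next. Reads per miR also depend on how well each sequence is ligated, so that an order of reads within a library is not one of molecules.

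Shares within the cluster do not depend on the scaling of the libraries, and they moved toward MIR502. They do depend on how reads were divided between near-identical names such as miR-502-3p and miR-500a-3p, which was not tested. MIR532 held 42.2% of the reads of the cluster in K562 (40.7 to 43.7) and 29.2% in K562/ADM (28.1 to 30.2). MIR502 held 30.6% (29.2 to 31.98) and 49.8% (48.7 to 51.0). The odds of MIR502 against the rest of the cluster in K562/ADM were 2.25 times those in K562 (2.08 to 2.44), and those of MIR532 were 0.565 times as high (0.522 to 0.612). MIR362 went from 12.1% to 9.12%, MIR500A from 6.24% to 4.64% and MIR660 from 3.83% to 1.93%, each with separate intervals. Because shares are parts of a whole, the larger share of MIR502 lowers the others. With the median of ratios, the ratios of MIR532, MIR500A and MIR362 were 1.48, 1.59 and 1.60, and that of MIR660 was 1.08. With this scaling the smaller shares of MIR532, MIR500A and MIR362 are therefore not lower levels. For MIR660 the interval of the ratio (0.854 to 1.35) held 1, so that a lower level cannot be told from a higher one. For MIR188, at 2.62% and 2.49%, and MIR501, at 2.43% and 2.82%, the intervals overlapped.

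**Figure D3:**
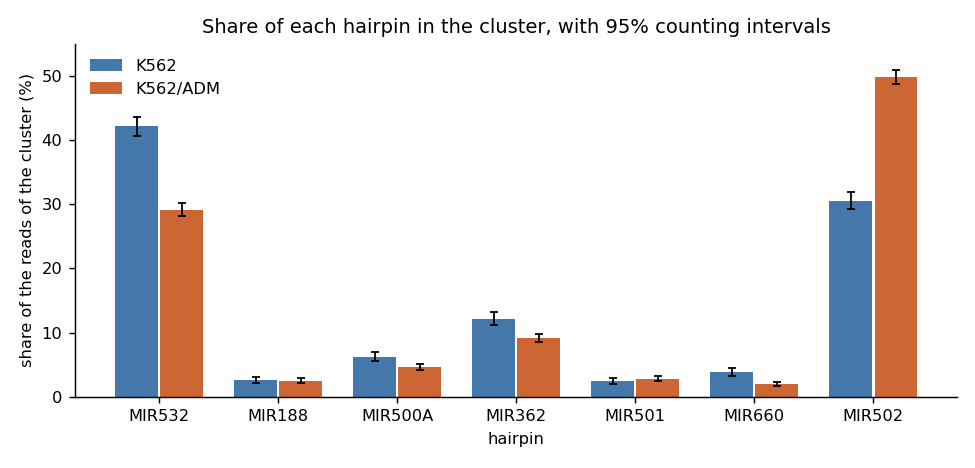
Share of each hairpin in the reads of the cluster (y axis, %) in K562 (blue) and K562/ADM (orange), with both arms summed and 95% counting intervals as bars. MIR532 is the largest in K562 at 42.2% and MIR502 in K562/ADM at 49.8%.

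Arm use was compared within each hairpin, which is also free of scaling. As the reads were assigned, MIR532, MIR188, MIR500A and MIR362 gave mostly 5p reads in both libraries, and MIR502 almost only 3p reads. For MIR500A and MIR502 this rests on how reads were divided between the near-identical miR-500a* and miR-502-3p, which was not tested. In no hairpin did the arm with more reads differ between the libraries. At MIR501 the interval of the 5p share in K562 (35.4 to 55.3%) leaves the more abundant arm there undetermined. At MIR532 the 5p share was 85.2% in K562 (83.4 to 86.8) and 90.2% in K562/ADM (88.8 to 91.4), an odds ratio of 1.60 (1.31 to 1.95). At MIR501 it was 45.2% (35.4 to 55.3) and 26.7% (20.8 to 33.2), an odds ratio of 0.442 (0.262 to 0.745). As the reads were assigned, the shift at MIR501 ran toward the 3p arm and that at MIR532 toward the 5p arm. The MIR501 shares rest on miR-501-3p, and whether reads of the near-identical miR-502-3p add to it was not tested. At MIR362 the shares were 84.4% and 83.1%, with an odds ratio of 0.907 (0.655 to 1.25). At MIR502 the 5p share was 0.153% (0.0185 to 0.551) and 0.0538% (0.00652 to 0.194), and at MIR188 and MIR500A the 3p arm had no reads in K562, which leaves those 3 shifts undetermined at this depth.

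Arm shares also differed between the libraries elsewhere in the table. Of the 84 other hairpins with at least 50 reads on each of their arms, the interval of the odds ratio excluded 1 in 45 (53.6%), and the odds moved by a median of 1.43-fold. In 20 of them (23.8%) the odds moved by more than 2-fold, as at MIR501, with its uncertain 3p reads, but not at MIR532. Among the 3 hairpins of the cluster with as many reads on each arm, MIR532, MIR362 and MIR501, it excluded 1 in 2.

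Summed over all hairpins, the 5p arms had a ratio of 1.55 (1.47 to 1.63) and the 3p arms of 3.01 (2.84 to 3.18). The 5p share of the cluster was 60.0% in K562 (58.5 to 61.5) and 43.6% in K562/ADM (42.5 to 44.8). As the reads were assigned, MIR502 carried this difference. Over the other hairpins the 5p share was 86.3% (85.1 to 87.6) and 86.9% (85.8 to 88.0), an odds ratio of 1.05 (0.909 to 1.21).

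**Figure D4:**
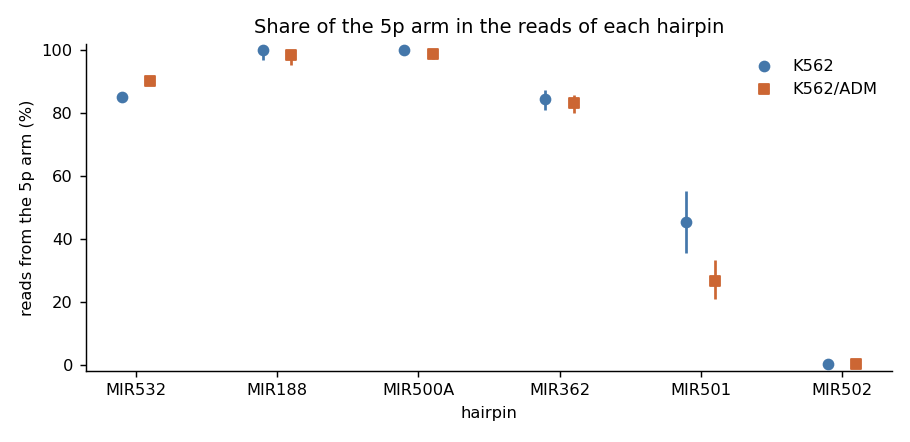
Share of reads from the 5p arm (y axis, %) in each hairpin with names for both arms, in K562 (circles) and K562/ADM (squares), with 95% counting intervals. MIR532 is higher and MIR501 lower in K562/ADM, and MIR502 is near 0% in both.

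Among the 12 names with a RefSeq sequence, 1 shares its seed with a miR outside the cluster that the table lists. MiR-362-3p has the same bases 2 to 8 as miR-329-3p of the 14q32 cluster.
miR-362-3p: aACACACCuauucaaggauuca
miR-329-3p: aACACACCugguuaaccucuuu
MiR-329, listed without an arm, had 1020 reads in K562 against 27 in the variant, 30.8-fold lower (21.1 to 47.0), whereas miR-362-3p had 81 and 115 reads and was not called. Taking the listed miR-329 as the 3p arm, the reads with this seed went from 1101 to 142, 6.33-fold lower (5.31 to 7.59). The share of miR-362-3p among them was 7.36% in K562 (5.89 to 9.06) and 81.0% in K562/ADM (73.6 to 87.1).

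The cluster was set beside other miRs of chromosome X. Of the 70 other names placed there, 11 were called higher (15.7%) and 1 lower, with a median log2 ratio of 0.39 over the 44 with at least 10 reads, beside 3 of 13 (23.1%) and 0.65 for the cluster. The summed reads of those names had a ratio of 1.11 (1.10 to 1.12). The odds of a read coming from the cluster rather than from them in K562/ADM were 1.93 times those in K562 (1.85 to 2.004), or 1.39 times without miR-502-3p (1.32 to 1.46).

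Among the X clusters, the one from miR-424 to miR-450, whose miR-424 and miR-503 are related to the miR-15/16 family, had 4 of 9 names called higher, a median log2 ratio of 1.45 over the 7 with at least 10 reads, beside 0.65 for the CLCN5 cluster, and a summed ratio of 2.13 (2.01 to 2.26). Against it the odds of the CLCN5 cluster were 1.00 (0.932 to 1.07), or 0.723 (0.669 to 0.781) without miR-502-3p. The miR-106a-363 cluster, a relative of miR-17-92, had 43 and 28 reads over its 7 names on chromosome X alone, 0 called, and a summed ratio of 0.797 (0.477 to 1.31). Against it the odds of the CLCN5 cluster were 2.68 (1.62 to 4.48). MiR-425, the reference miR of the study, had a ratio of 1.09 (1.07 to 1.10). These odds compare the reads of the libraries only.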

How the data were processed

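Small RNA of K562 and K562/ADM was sequenced from 1 library each. The authors grouped the reads by sequence, omitted sequences seen once, mapped to miRBase 16 with Bowtie in miRanalyzer and scaled with DESeq. CASAVA 1.7.0 and hg18 are named in the submitters' processing notes. The deposited signal is the reads of a library over its size factor, and 100% of its values were whole multiples of the smallest value above 0 within 0.001, which gave the reads. Omitting sequences seen once may make low counts too small. Yet miR-124 had 1 read in K562 and miR-133a had 1 in K562/ADM, so whether the omission applied to the deposited values is not clear. The authors' fold, log2 and p-value columns were not used.

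Ratios, K562/ADM to K562, used size factors recomputed by the median of ratios and exact 95% intervals (Clopper-Pearson). Odds ratios used the exact conditional interval. Calls were made over all 934 names. With 1 library per line no count model with replicates could be fitted, and no p-value was computed. Intervals and calls were run on simulated reads with counting error alone, which cannot check them against noise between libraries. Names were matched to chromosomes through RefSeq (GRCh38.p14); 29 were unmatched. Hairpin positions come from GENCODE on GRCh37.

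The members, the lists and the rule for the named miRs (all members, names that share a seed with one, X clusters, miR-425) were chosen with earlier results of these data known. TMM and upper-quartile factors came from edgeR 4.0.16 in R 4.3.3, intervals from scipy 1.17.1 and plots from matplotlib 3.10.9, with pandas 2.3.3 and numpy 2.4.6 in Python 3.11.15.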

Additional observations from a re-analysis of the deposited data

How the results depend on the processing

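The summed ratio of the cluster was 1.94 with total-read scaling, 1.98 with the median of ratios without 14q32, 1.96 with miR-425 scaling and 1.54 without miR-502-3p, each short of 2-fold, and 3.57 with upper-quartile scaling. Upper-quartile scaling also gave a median log2 ratio of 1.40 over the members, 9 members higher, and 223 higher and 95 lower names in the table. Calls by 2-fold alone gave 5 members higher, and 236 higher and 275 lower names in the table. Names with no reads in 1 library count as past 2-fold there, among them the added members miR-188-3p and miR-500a*, whose 3 and 4 reads are too few to show a fold. Calls that needed the whole interval past 2-fold gave 61 higher names and a minimum of 50 reads gave 62, fewer names being tested in the latter. No called value changed sides of 1 under these alternatives, but the uncalled ratios of miR-660 (0.978 with total reads, 0.990 with miR-425) and miR-532-3p (1.64 with the upper quartile) did. MiR-502-3p and miR-501-3p were called higher under all 6 other scalings. With 1 library per line, leaving out a library was not possible, and the noise between libraries is not known. Depth limits miR-188-3p, miR-500a* and miR-502-5p, which had at most 4 reads in a library.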
